A study of Mus musculus with 6 samples.

Results

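The 10 genes described here mark the bile duct epithelium and hepatic progenitor cells of the liver. They are the keratins Krt7, Krt19, Krt8, Krt18 and Krt23, the surface proteins Epcam, Prom1 and Cftr, the transcription factor Sox9 and the secreted protein Spp1. They were taken by name from a table of 55385 genes, and all 10 were found. Poly(A) RNA came from the liver of 3 male mice that had undergone vertical sleeve gastrectomy (VSG), in which the stomach is cut down to a narrow tube, and of 3 male mice that had undergone a sham operation. All 6 animals were wild-type C57BL/6 mice that entered at 6 to 8 weeks of age, ate a high-fat diet for 10 weeks before the operation and stayed on that diet for 12 weeks after it, so the sham livers too are livers under a high-fat diet. Each library came from the whole liver tissue of 1 animal, about 40 mg, with no sorting of cells.

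Bile ducts are tubes lined by cholangiocytes, a small minority of the cells of the liver. Cholangiocytes and hepatocytes both descend from the fetal hepatoblast, and cells with mixed features appear around the ducts when the liver is injured, a response known as the ductular reaction. Keratin filaments are built from pairs of a type I and a type II keratin. Krt18 (type I) and Krt8 (type II) form the filaments of hepatocytes as well as of ducts, whereas Krt19 (type I) and Krt7 (type II) are largely restricted to ducts in the adult liver. Sox9 is a transcription factor of ductal cells and of some hepatocytes next to the portal tract.

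The comparison asks which of these markers differed between VSG and sham livers. Krt23 was lower and Sox9 was higher after VSG, and these 2 genes were the only ones of the 9 markers tested that passed an adjusted p of 0.05 in the edgeR quasi-likelihood test across all genes. Over all 14454 genes tested, 14.7% passed, 7.87% as lower and 6.79% as higher after VSG. The markers that are largely restricted to ducts, Krt7, Krt19, Epcam and Cftr, had at most 151 counts in any library, and none of the 3 that could be tested passed. The libraries of the groups did not overlap in 2 of the 9 markers tested, Krt23 and Sox9, against 39.7% of all genes. The median log2 fold change of the 9 markers tested was -0.76, against 0.03 over all genes tested. Of the 9 markers, 7 were on the negative and 2 on the positive side, against 6885 and 7569 of all genes tested. That median rested on sham replicate 3, without which it was -0.13, and it was -0.24 with limma on log2(FPKM + 1). In bulk tissue, fewer cells of a type and less RNA per cell cannot be told apart.

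**Figure D1:**
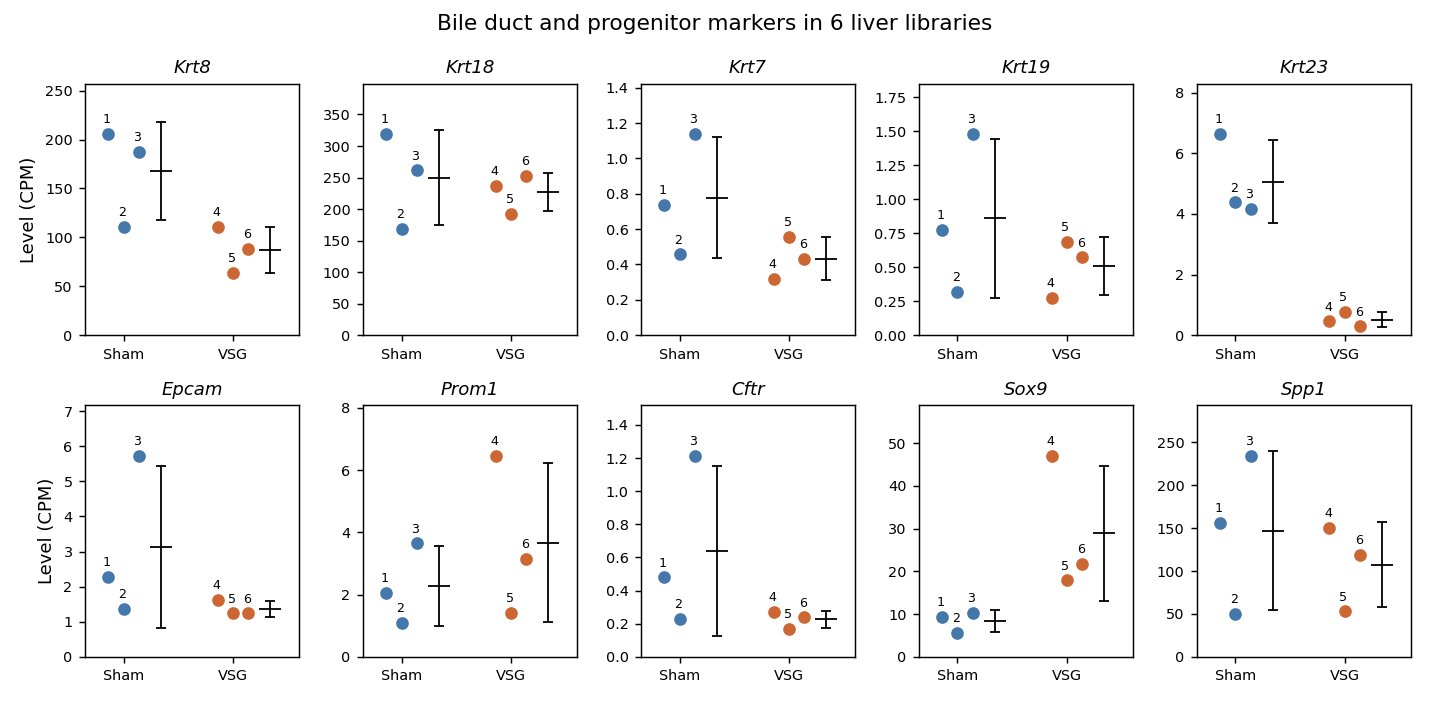
Level of each marker in CPM (counts per 1000000 counts of the scaled library) in the 6 libraries, with the axis of each panel starting at 0. Each point is 1 liver labelled with its replicate number, and the bar beside each group gives the mean ± SD (n = 3). The groups are apart in Krt23 and Sox9, and sham replicate 3 is the highest point in Krt7, Krt19, Epcam, Cftr and Spp1.

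Total counts ran from 22804397 to 24191778 per library, and a count of 3, taken as the floor, was worth 0.124 to 0.132 CPM before scaling. Levels below are in CPM with TMM factors unless FPKM (CPM per kilobase of exon) is named. The hepatocyte markers Alb, Apoa1, Ttr, Hnf4a, Tat, Cps1, Asgr1, F9 and Ahsg were all detected in every library, with a summed level of 52990 to 103772 CPM per library. Of the pancreatic acinar markers, Clps was at 0 counts in every library, and the 8 genes of that list summed to at most 0.598 CPM. The 7 mesothelial markers, a cell type that also makes Krt7, Krt8, Krt18 and Krt19, summed to 6.75 to 8.30 CPM in the sham group. In VSG replicates 4, 5 and 6 they summed to 5.88, 16.1 and 6.86 CPM, and all 7 were highest in replicate 5. Among the VSG livers, replicate 5 had the most Krt7 and Krt19 and the least Krt8 and Krt18. VSG livers carried far more neutrophil transcripts. All 9 neutrophil markers passed as higher, and their sum lay between 2.56 and 14.2 CPM among sham livers and between 146 and 1802 CPM among VSG livers. Mpo, Prtn3 and Ltf, which encode granule proteins, rose by 8.55, 7.61 and 7.46 on the log2 scale (edgeR adjusted p-values of 0.0200, 0.00177 and 0.0179). The 9 calls became 7 without sham replicate 1 and 1 when either of the other sham livers or replicate 6 of the VSG group was left out, and they were 4 with limma-voom. Prtn3 passed in each of these fits, while the log2 fold changes of Mpo and Ltf reached 11.6 and 9.17 without sham replicate 1 and were 7.76 and 6.44 without VSG replicate 4. Of the 11 macrophage markers, 4 passed as higher and 0 as lower, led by Marco at 4.96 (adjusted p 0.0269), Timd4 at 3.03 (0.0216) and Vsig4 at 1.51 (0.0405) on the log2 scale. These 4 calls became 0 when replicate 2 or 3 of the sham group or replicate 6 of the VSG group was left out, 2 without VSG replicate 4 and 2 with limma on log2(FPKM + 1), and Marco moved between 4.24 without VSG replicate 4 and 6.23 without sham replicate 1.

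The promoters of 3 keratins are shown because Krt8 and Krt18, which lie 23.7 kb apart in opposite orientation on chromosome 15, had a ratio that separated the groups, and because Krt23 had the largest change of the 9 markers tested. Each window holds the 250 bases before and the 50 bases after the RefSeq transcription start, 5′ to 3′ (RefSeq, GRCm38.p6). The windows are chr15:102004293-102004592 on the minus strand for Krt8, chr15:102027966-102028265 on the plus strand for Krt18 and chr11:99493071-99493370 on the minus strand for Krt23. Capitals mark matches, on either strand, to any of 5 motifs, those of the TATA box, the GC box, AP-1, TEAD (the partner of YAP) and RBPJ (the DNA-binding partner of Notch), whose letters are given after the sequences.
Krt8: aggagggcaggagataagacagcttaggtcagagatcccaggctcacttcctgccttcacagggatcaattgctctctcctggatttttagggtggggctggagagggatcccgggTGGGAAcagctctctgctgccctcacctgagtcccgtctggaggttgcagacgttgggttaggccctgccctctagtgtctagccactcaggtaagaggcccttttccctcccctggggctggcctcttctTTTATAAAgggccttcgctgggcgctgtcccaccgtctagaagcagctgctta
Krt18: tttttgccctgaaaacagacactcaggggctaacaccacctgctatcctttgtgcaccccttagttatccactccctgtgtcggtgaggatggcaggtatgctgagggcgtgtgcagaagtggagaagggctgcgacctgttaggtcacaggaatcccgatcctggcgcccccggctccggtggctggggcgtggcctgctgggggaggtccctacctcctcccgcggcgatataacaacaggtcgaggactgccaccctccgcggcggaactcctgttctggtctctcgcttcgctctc
Krt23: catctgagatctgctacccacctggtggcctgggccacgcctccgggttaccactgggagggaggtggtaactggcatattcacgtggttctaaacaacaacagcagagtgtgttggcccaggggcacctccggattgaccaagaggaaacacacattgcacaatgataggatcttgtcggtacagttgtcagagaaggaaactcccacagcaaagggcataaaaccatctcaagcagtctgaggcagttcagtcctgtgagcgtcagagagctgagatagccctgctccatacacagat

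The Krt8 window held the RBPJ motif, with its first base 134 bases before the start, and the TATA box in both orientations, overlapping at the start. Neither Krt18 nor Krt23 held a match in its window. Windows were found for 8 of the 10 markers, and the table held 32851 promoters in all. The GC box was searched as GGGCGG and was found in 4 of the 8 (Krt7, Epcam, Prom1 and Cftr), against 35.7% of all promoters. The AP-1 motif was searched as TGANTCA and was found in 1 of the 8, Prom1, against 7.81%. The RBPJ motif was searched as TGGGAA and was found in 2 of the 8, Krt8 and Prom1, against 25.6%. For the TATA box, searched as TATAAA, the count was 2 (Krt8 and Spp1) against 13.6%. For TEAD, searched as GGAATG, it was 0 against 14.7%. These matches are descriptions of the letters only.

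Krt23 is a type I keratin that is scarce in healthy liver and is known to be raised in stressed liver. Its gene (ENSMUSG00000006777.7) has 8 exon blocks at chr11:99477974-99493137 (GRCm38, minus strand). Its level was 6.64, 4.38 and 4.17 CPM in sham replicates 1, 2 and 3 and 0.452, 0.769 and 0.286 CPM in VSG replicates 4, 5 and 6. Every VSG liver was below every sham liver, and the lowest sham level was several times the highest VSG level. The counts behind these levels were 180, 96 and 110 in sham and 10, 18 and 6 in VSG libraries, all above the floor. Krt23 fell from 5.07 ± 1.37 to 0.502 ± 0.245 CPM (SD, n = 3), which is 9.92-fold lower (log2 fold change -3.31 with an SE of 0.390 and edgeR adjusted p of 0.00789). The call held under all 13 alternatives that tested Krt23, with an adjusted p of at most 0.0458. The log2 fold change ran from -3.78 without VSG replicate 5 to -3.04 without VSG replicate 6, and it was -1.74 with limma on log2(FPKM + 1), a scale on which the pseudocount shrinks the change of low genes. The gene was left out where at least 10 counts were asked of every library, because VSG replicate 6 had 6.

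Sox9 changed in the other direction. Its gene (ENSMUSG00000000567.5) has 3 exon blocks at chr11:112782224-112787760 (GRCm38, plus strand). Its level was 9.41, 5.57 and 10.3 CPM for the sham replicates against 47.1, 17.9 and 21.8 CPM for the VSG replicates. The groups did not overlap, and VSG replicate 4 stood well above the other 2 VSG livers. The mean rose from 8.43 ± 2.52 to 28.9 ± 15.8 CPM, which is 3.42-fold higher (log2 fold change 1.77 with an SE of 0.414 and edgeR adjusted p of 0.0359). Without VSG replicate 4 the log2 fold change was 1.23 with an adjusted p of 0.0476. It no longer passed on leaving out any of the sham livers (adjusted p 0.0794 without replicate 1, 0.0960 without replicate 2 and 0.116 without replicate 3) or VSG replicate 6 (0.0864). With limma-voom the adjusted p was 0.0540, and with limma on log2(FPKM + 1) it was 0.0705. The neutrophil sum had the same order among the VSG livers as Sox9, with 1802, 146 and 829 CPM in replicates 4, 5 and 6, and its part in the result was not tested.

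None of the markers that are largely restricted to ducts passed as higher. Krt19 had 21, 7 and 39 counts for the sham group against 6, 16 and 12 for the VSG group. These are levels of 0.775, 0.319 and 1.48 CPM in the sham group against 0.271, 0.683 and 0.572 CPM in the VSG group. The lowest value of all 6 was that of VSG replicate 4, the liver with the most Sox9. Krt19 had a log2 fold change of -0.76 (SE 0.602, adjusted p 0.402), which was -0.13 without sham replicate 3.

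Krt7, which pairs with Krt19 in duct cells, had 20, 10 and 30 counts for the sham group against 7, 13 and 9 for the VSG group. Its levels were 0.738, 0.456 and 1.14 CPM in the sham group against 0.316, 0.555 and 0.429 CPM in the VSG group. The groups overlapped through sham replicate 2 and VSG replicate 5. Krt7 had a log2 fold change of -0.84 (SE 0.431, adjusted p 0.215), which ran from -1.10 without sham replicate 2 to -0.47 without sham replicate 3 and was -0.078 with limma on log2(FPKM + 1).

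Epcam, an adhesion molecule of epithelia that hepatocytes of the adult liver lack, was at 2.29, 1.37 and 5.73 CPM in the sham group against 1.63, 1.24 and 1.24 CPM in the VSG group. Sham replicate 3 was far above the rest, and sham replicate 2 lay within the range of the VSG livers. The log2 fold change of -1.20 (SE 0.527, adjusted p 0.163) was -0.43 without sham replicate 3.

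Cftr, the chloride channel of the duct surface, had 13, 5 and 32 counts for the sham group against 6, 4 and 5 counts for the VSG group. It was too low for the filter and was the only marker not tested. Its levels were 0.480, 0.228 and 1.21 CPM in the sham group against 0.271, 0.171 and 0.238 CPM in the VSG group, and sham replicate 2 lay within the range of the VSG livers. Without a filter the log2 fold change was -1.53 with an adjusted p of 0.184.

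The sum of Krt7, Krt19, Epcam and Cftr, a set grouped after its values were seen, was 4.28, 2.37 and 9.56 CPM in the sham group against 2.49, 2.65 and 2.48 CPM in the VSG group. The 3 VSG livers were nearly equal, and the sham livers spread on both sides of them. Prom1 (CD133, a surface protein of progenitor and duct cells) did not have this pattern. It was at 2.07, 1.10 and 3.64 CPM in the sham group against 6.46, 1.41 and 3.15 CPM in the VSG group. VSG replicate 4 was the highest, as for Sox9, and the groups overlapped. The log2 fold change of 0.69 (SE 0.621, adjusted p 0.463) became -0.00647 without VSG replicate 4.

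**Figure D2:**
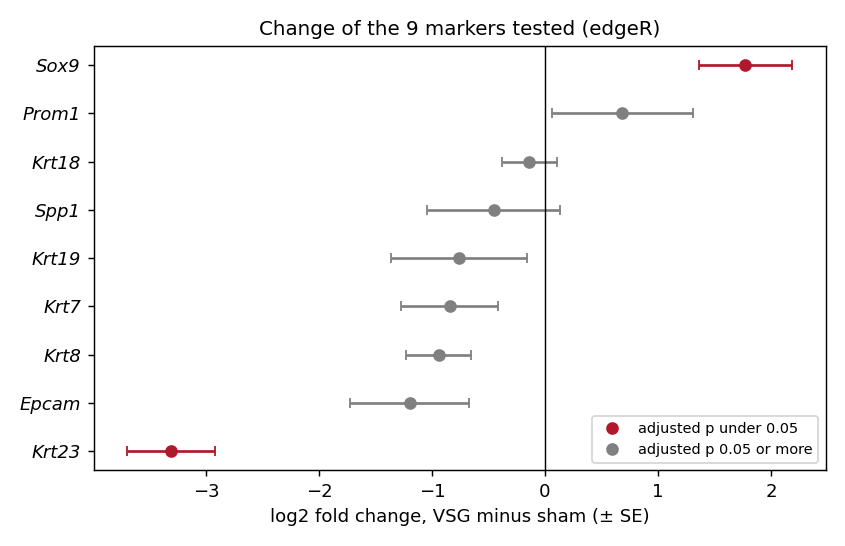
Log2 fold change, VSG minus sham, of the 9 markers tested, with its standard error, by the edgeR quasi-likelihood test on 3 against 3 libraries. Krt23 at -3.31 and Sox9 at 1.77 passed an adjusted p of 0.05 (red), and the other 7 (grey) lay between -1.20 and 0.69.

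Krt8 and Krt18, the keratins of hepatocytes, were the most abundant of the 5 keratins in every library. Per length, Krt18 was at 174 ± 52.7 FPKM in sham and 158 ± 21.3 FPKM in VSG livers, and Krt8 at 85.7 ± 25.8 and 44.7 ± 12.1 FPKM. The pair made up between 98.3% and 99.8% of the summed FPKM of the 5 keratins in each library. Krt23 was at 3.24 ± 0.874 FPKM in sham livers, while Krt19 and Krt7 were at 0.463 ± 0.315 and 0.110 ± 0.0486 FPKM.

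Krt8 was at 206, 111 and 187 CPM in the sham group against 111, 63.4 and 88.4 CPM in the VSG group. The groups touched at sham replicate 2 and VSG replicate 4, whose levels were nearly equal. The log2 fold change was -0.94 (SE 0.288), 1.92-fold lower, with an unadjusted p of 0.0144 and an adjusted p of 0.0720 by edgeR, so Krt8 did not pass. It did with DESeq2 (adjusted p 0.0116), without a low-count filter (0.0350) and without sham replicate 2 (0.0498), and over all 14 alternatives its log2 fold change stayed between -1.17 and -0.77.

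Krt18 was at 319, 169 and 261 CPM in the sham group against 236, 193 and 252 CPM in the VSG group. All 3 VSG livers lay inside the range of the sham livers. For Krt18 the log2 fold change was -0.14 (SE 0.243, adjusted p 0.712).

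The level of Krt8 relative to Krt18, a ratio chosen with earlier results of these data known, separated the groups. Of all single genes tested, 39.7% separated them, and the share of gene ratios that do so was not computed. Krt8 FPKM divided by Krt18 FPKM was 0.473, 0.480 and 0.526 for the sham replicates against 0.344, 0.241 and 0.258 for the VSG replicates. In sham livers the ratio varied little although the levels of both genes varied, and every VSG liver had a lower ratio than every sham liver. On the log2 scale the ratio was -1.02 ± 0.0827 in sham and -1.85 ± 0.272 in VSG livers, a difference of -0.83. An exact two-sided permutation test gave p = 0.1, the smallest value that 3 against 3 samples allow. Groups of 3 that do not overlap always give this value, so the test adds nothing to the separation. The ratio is free of library scaling, since both genes come from the same library.

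**Figure D3:**
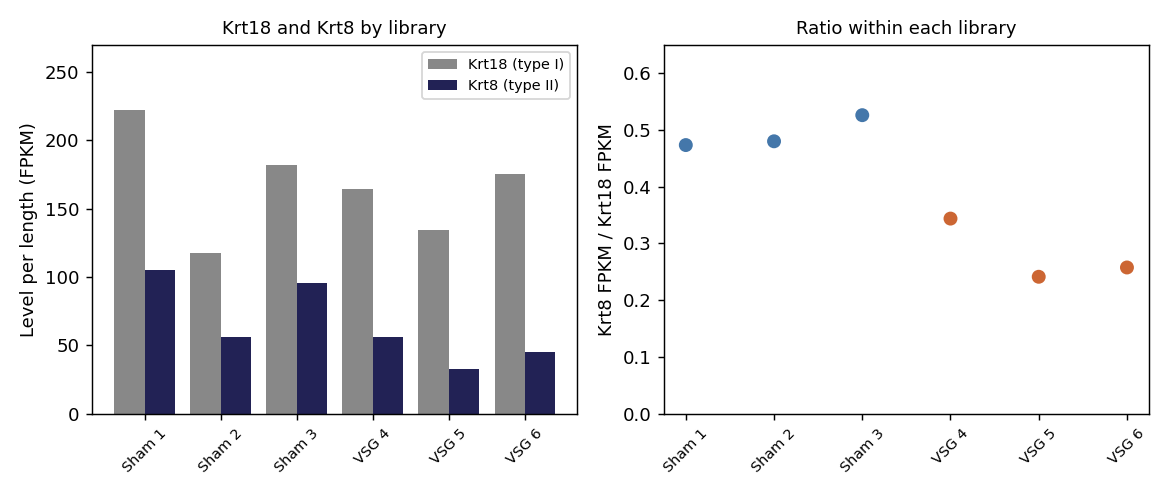
Left, FPKM of Krt18 (grey bars) and Krt8 (dark bars) in each of the 6 libraries, from 0. Right, Krt8 FPKM divided by Krt18 FPKM in each library, which is 0.473 to 0.526 in the 3 sham livers (blue) and 0.241 to 0.344 in the 3 VSG livers (orange).

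Spp1 (osteopontin), which is secreted by duct cells and also by macrophages and stellate cells, was at 156, 49.9 and 234 CPM in the sham group against 150.3, 53.0 and 118 CPM in the VSG group. All 3 VSG livers lay inside the range of the sham livers, and replicate 5 of the VSG group was close to replicate 2 of the sham group. For Spp1 the log2 fold change was -0.45 (SE 0.585, adjusted p 0.608), and it was 0.0486 without sham replicate 3. Trem2, Gpnmb and Cd9, markers of lipid-associated macrophages that also make Spp1, did not pass either. Their log2 fold changes were -1.40, -0.59 and 0.15 (edgeR adjusted p 0.150, 0.728 and 0.788). Among all 11 macrophage markers, 9 had a positive log2 fold change and 2, Trem2 and Gpnmb, a negative one. Over all genes tested the counts were 7569 and 6885. The sum of the 11 macrophage markers was 888, 377 and 579 CPM in sham replicates 1 to 3 and 2250.4, 829.7 and 1406 CPM in VSG replicates 4 to 6, and its part in the level of Spp1 was not tested.

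By level per length over all 6 libraries the order was Krt18, Spp1, Krt8, Sox9, Krt23, Epcam, Prom1, Krt19, Krt7 and Cftr. Krt18 was above Spp1 in all 6 libraries, as were Krt8 above Sox9, Krt19 above Krt7 and Krt7 above Cftr. Spp1 and Krt8, Sox9 and Krt23, Krt23 and Epcam, Epcam and Prom1, and Prom1 and Krt19 were not in the same order in every library. The place of Krt23 changed with the operation, from 3.24 ± 0.874 FPKM in sham to 0.321 ± 0.157 FPKM in VSG livers, and Sox9 went from 2.04 ± 0.610 to 6.995 ± 3.83 FPKM. FPKM uses the summed exon length of all isoforms (7049 bases for Krt7), so a level per length depends on the annotation.

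Of the 3 sham livers, replicate 2 was the lowest in 9 of the 10 markers and replicate 3 the highest in 7, where over all genes tested replicate 2 was the lowest in 36.5% and replicate 3 the highest in 24.3%. The other bile duct genes, a list of 19, had the same pattern, with sham replicate 2 the lowest sham liver in 16 and replicate 3 the highest in 15. Low levels in sham replicate 2 were not particular to duct genes, since it was also the lowest sham liver in 9 of 11 macrophage markers, 9 of 11 keratin linker and aggregate genes and 9 of 12 Notch pathway genes. Tspan8, a tetraspanin of duct cells named after its values were seen, was at 3.10, 0.867 and 8.08 CPM in the sham group against 1.45, 1.28 and 1.91 CPM in the VSG group. Sham replicate 2 also had the highest hepatocyte sum, 103772 CPM against 66474 CPM for replicate 1 and 67632 CPM for replicate 3, and the lowest macrophage and stellate cell sums, 377 against 888 and 579 CPM and 668 against 1019.9 and 1057 CPM. The part of tissue composition in the marker levels was not tested.

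**Figure D4:**
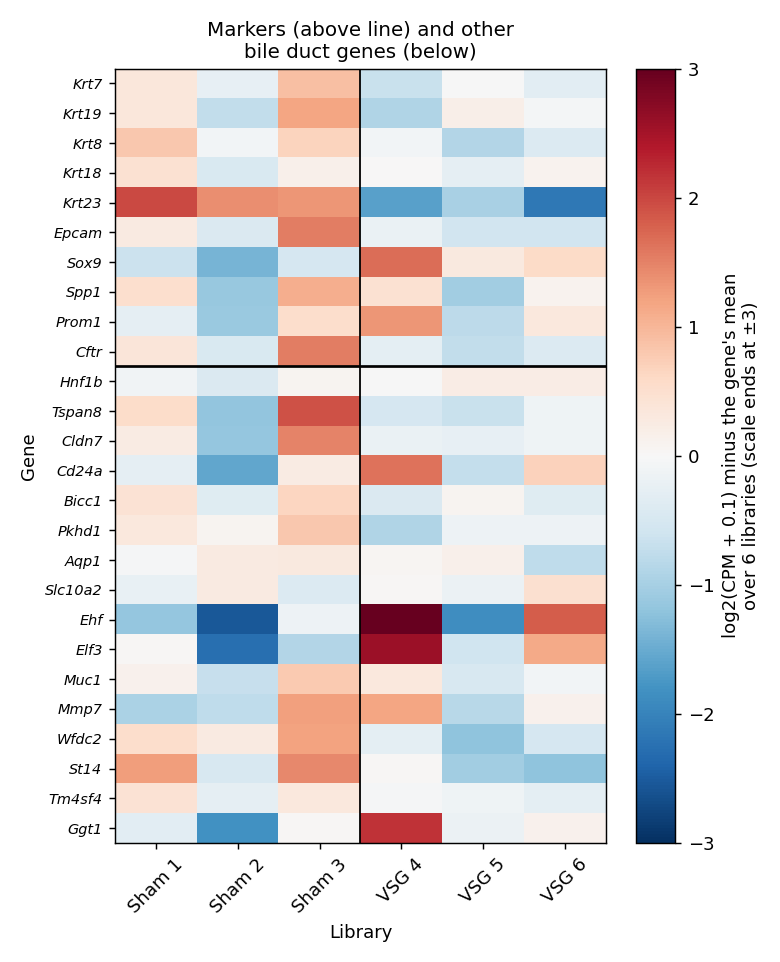
Level of the 10 markers (above the line) and of the other bile duct genes with a mean of at least 0.4 CPM (below) in each library, as log2(CPM + 0.1) minus the mean of the gene over the 6 libraries. Most rows are red in sham replicate 3 and blue in sham replicate 2, Krt23 is red in all 3 sham and blue in all 3 VSG livers, and Sox9, Ehf and Elf3 are reddest in VSG replicate 4.

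Of the 19 other bile duct genes, 13 had enough counts to be tested, 1 passed as lower and 0 passed as higher, with a median log2 fold change of -0.31. Wfdc2, a secreted protein of epithelia, was the one that passed. It was at 17.8, 14.8 and 28.4 CPM in the sham group against 9.99, 5.25 and 8.67 CPM in the VSG group. The groups did not overlap (log2 fold change -1.35 with an SE of 0.320 and adjusted p of 0.0374), but the call was lost on leaving out any 1 library except VSG replicate 5, with the adjusted p then at up to 0.124. DESeq2 called 5 of the list, 3 as lower (Wfdc2, Pkhd1 and St14) and 2 as higher (Ehf and Elf3). Ehf and Elf3, ETS factors of epithelia named after their values were seen, did not pass in edgeR with all 6 libraries. Both passed as higher with DESeq2 (adjusted p 0.0469 and 0.0192) and in edgeR without VSG replicate 5 (0.0216 and 0.0390). Ehf was at 1.59, 0.548 and 3.30 CPM in the sham group against 55.1, 0.939 and 13.2 CPM in the VSG group (log2 fold change 3.65 with an SE of 1.30 and adjusted p of 0.103). Elf3 had the same order among the VSG livers, with 18.3, 1.96 and 6.77 CPM in replicates 4, 5 and 6 (log2 fold change 2.34, adjusted p 0.114).

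Among 11 fetal and progenitor genes, 8 were tested, 1 passed as higher and 0 as lower. The one was Peg3, an imprinted zinc finger gene, which rose from 6.96 ± 1.12 to 28.3 ± 3.48 CPM (log2 fold change 2.02 with an SE of 0.161 and adjusted p of 0.00269). Afp, the classical fetal liver protein, was at 1.99 ± 0.785 and 1.22 ± 0.328 CPM (log2 fold change -0.71, adjusted p 0.236).

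Notch and YAP are known to act upstream of Sox9 in the biliary lineage. None of the 12 Notch pathway genes passed in edgeR, where 1 had an unadjusted p under 0.05, and the same genes gave 1 call with DESeq2 and 0 with limma-voom. In edgeR Notch1 passed as lower without sham replicate 2, and Heyl, named after its values were seen, passed as lower without VSG replicate 5. The receptor Notch1 was at 44.4 ± 8.82 CPM in the sham group against 31.6 ± 1.34 CPM in the VSG group (log2 fold change -0.49, adjusted p 0.0775), and the target Hes1 at 11.2 ± 4.81 and 14.9 ± 4.22 CPM (log2 fold change 0.41, adjusted p 0.429). Of 11 YAP pathway genes, 10 were tested and 1 passed, as lower. That gene was Wwtr1, which encodes the YAP partner TAZ and went from 58.1 ± 6.81 to 39.2 ± 4.51 CPM (log2 fold change -0.57 with an SE of 0.129 and adjusted p of 0.0342). Its call was lost on leaving out any 1 library except VSG replicate 5, and the adjusted p then reached up to 0.129. Yap1 had a log2 fold change of 0.10 (adjusted p 0.449).

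Of 11 genes for keratin linkers and for proteins that collect with keratins in aggregates, 10 were tested, and 1 passed as lower and 0 as higher. The small heat shock protein Hspb1 fell from 4.40 ± 1.15 to 1.30 ± 0.426 CPM (log2 fold change -1.75 with an SE of 0.328 and adjusted p of 0.0217). Its adjusted p was 0.0550 on leaving out sham replicate 1, 0.0996 on leaving out sham replicate 3 and 0.0848 on leaving out VSG replicate 6. Plec, which anchors keratin filaments, was at 106 ± 20.8 and 148 ± 25.2 CPM (log2 fold change 0.48, adjusted p 0.123), and Sqstm1, the aggregate protein p62, at 476 ± 60.4 and 370.4 ± 48.7 CPM (log2 fold change -0.36, adjusted p 0.171). All 10 stellate cell markers had a negative log2 fold change, against 6885 of the 14454 genes tested. In edgeR 8 of the 10 had an unadjusted p under 0.05. The share of all genes under that limit was not computed, for this list or any other. The sum of the stellate cell markers was 668 to 1057 CPM in the sham group against 334 to 660.2 CPM in the VSG group. DESeq2 called 6 and edgeR 1, which was Reln (log2 fold change -1.27, adjusted p 0.0328). Reln did not pass on leaving out any 1 of the sham livers or VSG replicate 6, with the adjusted p then at up to 0.123, and the list gave from 0 to 4 calls over the 6 fits lacking 1 library. Of the 9 hepatocyte and 8 endothelial markers none passed in edgeR, where 2 and 1 had an unadjusted p under 0.05, and DESeq2 called 2 and 0. None of the 4 mesothelial markers tested passed in edgeR with all 6 libraries, 0 had an unadjusted p under 0.05, and DESeq2 called 0, but 2 of the list, Lrrn4 and Muc16, passed as higher in edgeR without VSG replicate 4. The part of mesothelial cells in the keratin levels was not tested.

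The genes with the most similar profile over the 6 libraries were found for each marker by the root mean square distance of centred log2 CPM values, among genes with a mean of at least 1 CPM. For Krt23 they were Scd1, the stearoyl-CoA desaturase, and Mgst3, at distances of 0.24 and 0.30. For Sox9 they were Tmem268 and S100a6 (0.08 and 0.15). For Krt8 they were Irf7 and Frzb (0.05 and 0.11), and for Krt18 Gpx7 and Slfn5 (0.05 and 0.08). Krt18 was at rank 866 of 12902 genes by distance from Krt8, and Krt8 was at rank 8040 by distance from Krt18, so neither partner was among the genes closest to the other. For Krt7 they were Gpr153 and Bicc1, the latter also of the bile duct list, at 0.17 each. For Krt19 they were Col16a1 and Cystm1 (0.27 and 0.29), for Epcam Syt7 and Limk1 (0.21 and 0.25), for Spp1 Calml4 and Gm37795 (0.21 and 0.25) and for Prom1 Tspan32 and Lpcat4 (0.11 and 0.20).

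In the same annotation Krt7 (ENSMUSG00000023039.17) lies at chr15:101411043-101430313, Krt8 (ENSMUSG00000049382.10) at chr15:101996698-102004482 and Krt18 (ENSMUSG00000023043.7) at chr15:102028180-102032027. Krt19 (ENSMUSG00000020911.14) lies at chr11:100140810-100148665, Epcam (ENSMUSG00000045394.9) at chr17:87635979-87651129 and Cftr (ENSMUSG00000041301.15) at chr6:18170687-18322768. Spp1 (ENSMUSG00000029304.14) lies at chr5:104435118-104441050 and Prom1 (ENSMUSG00000029086.15) at chr5:43993620-44102032. Reads of Krt8 could be shared with its processed pseudogene Krt8-ps, which had 11, 5 and 11 counts for the sham group against 3, 6 and 2 for the VSG group. Spp1 shares 309 exon bases with Gm42793 on the same strand, which had at most 7 counts. Krt7, Krt8, Prom1 and Cftr have exon bases opposite other genes, of which Gm36026, opposite Krt8, had the most counts, 12 in sham replicate 1.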

How the data were processed

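Liver poly(A) RNA was measured in 6 mice. The authors' libraries were strand-specific. Reads were aligned to mm10 with STAR 2.6.0 and assigned to genes with featureCounts 2.0.3, by the submitters' processing notes. The annotation release, the strand setting and the treatment of shared reads are not given in the sources used here. The deposited values were raw counts per gene with the exon length of each gene. Symbols and positions came from GENCODE M21 (GRCm38), in which 55144 of 55385 identifiers were found. The sample titles gave the groups.

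The test was that of edgeR 4.0.16, run under R 4.3.3. Low genes were dropped with filterByExpr, set to a minimum count of 10 and a minimum total of 15. Libraries were scaled with TMM factors (0.897 to 1.15), and glmQLFit and glmQLFTest were run with group as the only term. Benjamini-Hochberg adjustment covered all 14454 genes. For the standard error, the log2 fold change was set over the root of F. The edgeR procedure was also run on simulated counts, whose outcome is not given here, and no result above rests on that run. Libraries of a group differed by more than counting noise (chi-square per degree of freedom of at least 25.2), so all were kept as separate samples. Floors cover counting error only. Alternatives were DESeq2 1.42.0, limma 3.58.1 (voom and log2(FPKM + 1)), other scalings, filters, prior count 2, and fits lacking 1 library.

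The members and gene lists were chosen with earlier results of these data known. Named genes are all markers, up to 3 genes per list and direction with the largest change among those past the threshold with a mean of at least 1 CPM, and the 2 genes nearest in profile to each marker tested. Other names were chosen for their role or after their values were seen.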

Additional observations from a re-analysis of the deposited data

How the results depend on the processing

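Krt23 kept its call under every alternative that tested it, and Sox9 kept its direction under all 14. The 2 markers past the threshold became 1 with limma-voom, with limma on log2(FPKM + 1) and with at least 10 counts in every library, where Krt23 was not tested. The number higher was 0 with limma-voom and with limma on log2(FPKM + 1). The number lower was 2 with DESeq2 and without a low-count filter, where Krt8 joined, and 0 with at least 10 counts in every library. Leaving out 1 library gave from 1 to 2 markers, from 0 to 1 higher and from 1 to 2 lower. Leaving out 1 library moved the log2 fold change of Krt18 from -0.36 (without sham replicate 2) to 0.0704 (without sham replicate 1), that of Spp1 from -0.87 (without sham replicate 2) to 0.0486 (without sham replicate 3) and that of Prom1 from -0.00647 (without VSG replicate 4) to 1.20 (without sham replicate 3), so each turned its sign.

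Over all genes, 2118 passed (981 higher, 1137 lower). DESeq2 gave 3272 (1523 higher, 1749 lower). Total counts without composition factors gave 486 higher and 1513 lower and moved the median log2 fold change of all genes from 0.03 to -0.11, and limma on log2(FPKM + 1) gave 389 higher and 1624 lower. Leaving out 1 library gave from 159 genes without sham replicate 3 to 2732 without VSG replicate 5, with from 48 to 1310 higher and from 111 to 1422 lower. Fewer samples were tested there, and the cause of other changes was not tested. Of 151 values of 11 named list genes under alternatives, 114 kept their side of the threshold, 37 lost it and 0 changed sign. Depth limits Krt7, Krt19 and Cftr, with at most 39 counts in a library. No paired analysis was possible because the groups share no sample number.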
